A study of Homo sapiens with 30 samples.

Results

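The 16 lists described here are the H3K27ac peak lists of a complete factorial, in which 4 antibodies were each combined with DNA extraction by SDS or on a column and with library amplification over 11 or 13 PCR cycles. They are 16 of the 30 libraries of the series, and the rule that selects them uses only their labels. The antibodies were Abcam-ab177178, Abcam-ab4729 and Active Motif 39133 at a dilution of 1/100, and Diagenode C15410196 at 1/50. All libraries came from K562, an established human chronic myeloid leukaemia line that carries a fusion of chromosomes 9 and 22. Each experiment used 500000 growing cells, none of the 16 was treated with trichostatin A, and the lists were called after downsampling to a common read depth, per the labels. Every condition was 1 library. No label says if libraries are from separate cultures, so p-values measure only the spread among matched pairs of lists, and 2 pairs of 1 antibody share their antibody. Other lists served as outside references: the 15-cycle SDS list of each antibody, and 5 lists for the repressive mark H3K27me3. The depth of the 15-cycle lists is unknown.

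H3K27ac, acetylation of lysine 27 on histone H3, marks active promoters and enhancers. H3K27me3, trimethylation of the same residue, is laid down by Polycomb repressive complexes over silenced genes, and the residue cannot carry both at once. In CUT&Tag an antibody bound to its mark on intact chromatin tethers a transposase that cuts and tags nearby DNA. SDS extraction releases the tagged fragments from the nuclei in a small volume and takes them straight into PCR, whereas column extraction digests protein with proteinase K and purifies the DNA before PCR. More PCR cycles copy the same fragments more often and add duplicates, which carry no new information on where the mark is. The design asks whether extraction and cycle number alter which regions are detected.

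Peaks are described by their number, width, summed signal (the total signal the authors' SEACR calls give each peak), chromosome and overlap with H3K27me3. Only chromosomes 1 to 22 and X were kept, which left out 1.02% to 5.67% of a list. Outside them, the mitochondrial sequence took a share of each list's summed signal that ranged from 2.72% to 60.1%. It was 2.72% to 10.8% in the 4 ab177178 lists, 9.40% to 13.8% with ab4729, 30.1% to 53.9% with Active Motif and 37.3% to 60.1% with Diagenode. The share was higher on the column than with SDS in 3 of 8 pairs and at 13 than at 11 cycles in 5 of 8; its part in any result below was not tested. The lowest summed signal of any kept peak ran from 1046 to 3230 across lists, so the lists did not share a signal floor. The files hold no gene names and no annotation of their build, hg19, was used, so peaks are given by position and no marker gene of K562 could be checked.

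Column lists held fewer peaks at 13 than at 11 cycles with all 4 antibodies, whereas SDS lists held more with 3 of 4. With ab177178 the lists held 10768 peaks (SDS, 11 cycles), 9096 (column, 11), 8149 (SDS, 13) and 8210 (column, 13). In the same order, ab4729 gave 5780, 6636, 6269 and 4665 peaks. Active Motif gave 3957, 7191, 6070 and 3896. Diagenode gave 4008, 6336, 6956 and 3761. With the last 3 antibodies the column list was the longer at 11 cycles and the shorter at 13, and with ab177178 both 11-cycle lists were longer than both 13-cycle lists. Among column lists the log2 ratio of 13 to 11 cycles averaged -0.57 ± 0.32 (n = 4 antibodies, lower in 4; unadjusted exact permutation p = 0.13, the lowest 4 allow), and among SDS lists 0.28 ± 0.54 (higher in 3 of 4; exact permutation p = 0.375, unadjusted). Over 8 pairs the log2 ratio of column to SDS averaged -0.06 ± 0.61 (SD; higher in 4 of 8; exact sign-flip permutation p = 0.758, two-sided, adjusted 0.888). That of 13 to 11 cycles was -0.15 ± 0.62 (higher in 3 of 8; exact permutation p = 0.523, adjusted 0.857). The extraction by cycle term, the column to SDS ratio at 13 cycles minus that at 11, was -0.86 ± 0.85 (n = 4 antibodies, below 0 in 3; exact permutation p = 0.25, adjusted 0.857). With 4 antibodies the smallest p possible is 0.13, so no such term could reach 0.05.

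The length of genome covered did not always follow the number of peaks, and with ab177178 both 13-cycle lists held fewer peaks than their 11-cycle partners but covered more. In the order SDS and column at 11 cycles, then SDS and column at 13, it was 11.4, 8.67, 11.5 and 10.51 Mb with ab177178 and 7.84, 11.2, 7.01 and 6.69 Mb with ab4729. Active Motif lists covered 4.05, 8.50, 4.84 and 3.58 Mb, and Diagenode lists 4.45, 7.16, 8.41 and 3.39 Mb. At 13 cycles the column list covered less than the SDS list in 4 of 4 antibodies, with a mean log2 ratio of -0.49 ± 0.57 (exact permutation p = 0.13, unadjusted, the smallest possible). At 11 cycles it covered more in 3 of 4. Over 8 pairs the log2 ratio averaged -0.0087 ± 0.75 for column to SDS (exact permutation p = 0.977, adjusted 1) and -0.22 ± 0.75 for 13 to 11 cycles (exact permutation p = 0.453, adjusted 0.857).

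**Figure D1:**
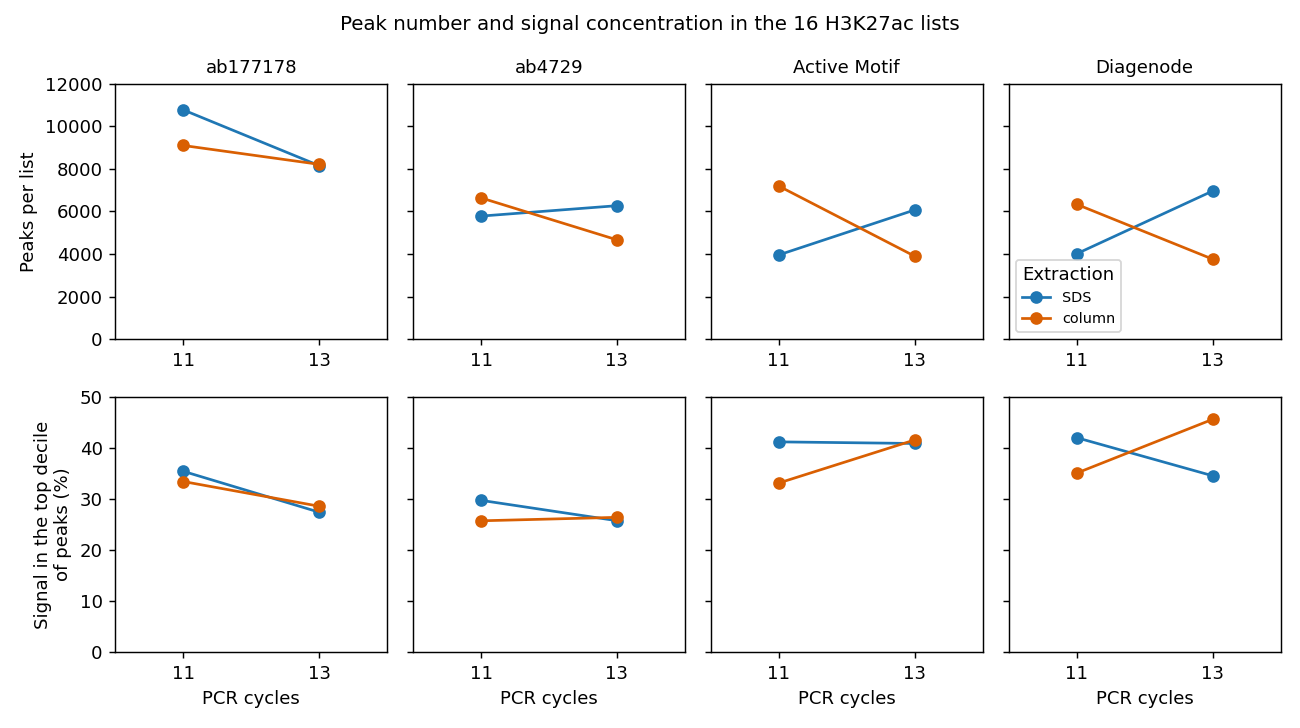
Peaks per list (top) and the share of summed signal held by the top decile of peaks, in percent (bottom), against PCR cycles, with 1 panel per antibody. Each point is 1 list, blue for SDS and orange for column, and lines join lists of the same extraction. The lines cross in every panel, but in the top ab177178 panel the lists at 13 cycles are nearly equal, with 8149 and 8210 peaks.

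The concentration of signal in the strongest peaks had opposite signs at the 2 cycle numbers. At 11 cycles the top decile of peaks held 35.4% (SDS) and 33.4% (column) of the summed signal with ab177178, and 29.7% and 25.7% with ab4729. It held 41.2% and 33.1% with Active Motif and 42.0% and 35.0% with Diagenode. The column list was thus the less concentrated in 4 of 4 antibodies, with a mean difference of column minus SDS of -5.25 ± 2.76 points. At 13 cycles the values for SDS and column were 27.4% and 28.6% with ab177178 and 25.7% and 26.4% with ab4729. For Active Motif they were 40.8% and 41.5%, and for Diagenode 34.5% and 45.6%. Here the column list was the more concentrated in 4 of 4, by 3.39 ± 5.10 points, of which Diagenode gave the most. The difference between the 2 cycle numbers was 8.64 ± 6.66 points (n = 4 antibodies, above 0 in 4; exact permutation p = 0.13, the smallest possible, adjusted 0.857). With all sequences kept, that difference was 6.36 points and was not above 0 in every antibody (exact permutation p = 0.25, adjusted 0.894). The longer list of a pair had the lower concentration in 6 of 8 extraction pairs and in 6 of 8 cycle pairs.

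The direction of the width difference between cycle numbers varied by antibody. Median peak width at 11 cycles was 919 bp (SDS) and 838 bp (column) with ab177178, against 1231 and 1125 bp at 13 cycles, so both 13-cycle lists had the wider peaks. For ab4729 it was 1208.5 and 1529 bp at 11 cycles and 999 and 1287 bp at 13, and for Active Motif 907 and 1034 bp at 11 and 714 and 821.5 bp at 13. With these 2 antibodies both 13-cycle lists had the narrower peaks. Diagenode stood at 988 and 995 bp at 11 cycles and 1051.5 and 799 bp at 13. On the log2 scale the mean ratio was 0.06 ± 0.27 for column to SDS (exact permutation p = 0.523, adjusted 0.857) and -0.07 ± 0.34 for 13 to 11 cycles (exact permutation p = 0.523, adjusted 0.857; n = 8 pairs each).

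The same contrast appeared among peaks that matched one to one between the lists of a pair. For ab177178 the median log2 width ratio of 13 to 11 cycles was 0.34 over 3989 SDS peaks and 0.37 over 3454 column peaks. For ab4729 it was -0.23 (SDS) and -0.26 (column), and for Active Motif -0.23 and -0.45. Diagenode differed by extraction, with 0.18 for SDS and -0.40 for column. Over the 8 pairs the mean was -0.08 ± 0.33 (exact permutation p = 0.492, adjusted 0.680), and for column to SDS 0.04 ± 0.25 (exact permutation p = 0.680, adjusted 0.680). Ranks of summed signal in the matched peaks correlated between lists with Spearman coefficients of 0.29 to 0.55 across peaks of 1 genome, which are not independent points.

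No width class passed the test in any of 12 comparisons (adjusted exact permutation p of at least 0.727). Peaks under 500 bp numbered 10 to 833 per list, those of 500 to under 2000 bp 3322 to 9937, and those of 2000 to under 5000 bp 88 to 1500. Peaks of 5000 bp and over, a width at which clustered enhancers are often seen, numbered 4 to 34 per list. Whether these peaks are clustered enhancers or repeat-rich sequence was not tested. In the order SDS and column at 11 cycles, then SDS and column at 13, they numbered 27, 19, 32 and 20 with ab177178 and 8, 34, 6 and 12 with ab4729. Active Motif gave 8, 24, 5 and 4, and Diagenode 14, 14, 15 and 10. The column to SDS ratio of these counts was smaller at 13 than at 11 cycles in 4 of 4 antibodies, with an extraction by cycle term of -0.94 ± 0.75 on the log2 scale (exact permutation p = 0.13, the smallest possible, adjusted 0.727). From 11 to 13 cycles the mean log2 ratio was -0.66 ± 0.96 (lower in 5 of 8; exact permutation p = 0.0703, adjusted 0.727). As a share of the list, peaks of this width made up 0.0824% to 0.512%. The mean differences were 0.052 points for column minus SDS and -0.070 points for 13 minus 11 cycles (exact permutation p = 0.422 and 0.219, both adjusted 0.857).

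Recovery of a fixed set of peaks was measured against the 15-cycle SDS list of the same antibody, cut into quintiles by summed signal. These held 16623 peaks for ab177178, 13394 for ab4729, 11844 for Diagenode and 3024 for Active Motif. Strong peaks were recovered more often than weak ones in all 16 lists. In the strongest quintile 58.3% to 85.8% of peaks were found across the 16 lists, and in the weakest 4.52% to 50.9%. The strongest quintile also held the widest peaks, with a median of 4978.5 bp against 1936 bp in the weakest quintile of ab4729, and width raises the chance of an overlap.

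Antibodies differed in how far recovery varied among their 4 lists, each of which is 1 library. In the third quintile of the ab177178 reference, recovery was 27.05% (SDS, 11 cycles), 21.3% (column, 11), 26.6% (SDS, 13) and 26.6% (column, 13), a range of 5.78 points. In the same quintile and order Diagenode gave 19.5%, 36.3%, 42.1% and 15.4%, and ab4729 30.5%, 43.2%, 30.4% and 23.3%. Active Motif gave 44.6%, 59.5%, 49.3% and 37.4%. The column list at 13 cycles was the lowest of the 4 for ab4729, Active Motif and Diagenode in that quintile. For those 3 antibodies, recovery in that quintile had the same order as the length of genome covered. Lists of ab177178 covered 8.67 to 11.5 Mb, and Diagenode lists 3.39 to 8.41 Mb. Recovery at equal list size was not measured, so the part of list length was not tested. The extraction by cycle term was below 0 for those 3 antibodies in each quintile, and its mean ran from -13.4 points in the weakest to -24.6 points in the fourth (n = 4; exact permutation p = 0.25 in each quintile, adjusted 0.75). None of the 15 tests passed, and the main contrasts of extraction and cycles averaged between -4.78 and 0.41 points.

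**Figure D2:**
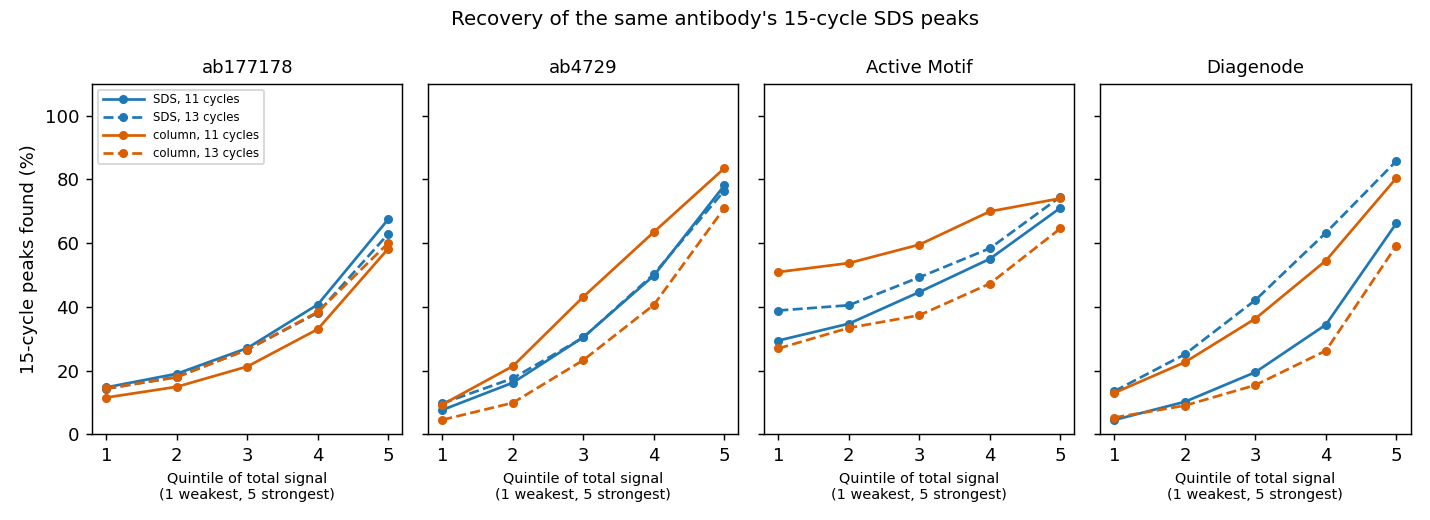
Share of the same antibody's 15-cycle SDS peaks found in each list, in percent, by quintile of summed signal from weakest to strongest. Blue is SDS and orange column, with solid lines for 11 and dashed lines for 13 cycles. All 16 lines climb from the weakest to the strongest quintile, the ab177178 lines lie close together, and in the 3 strongest quintiles the Diagenode lines spread most, up to 37.0 points in the fourth.

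Peaks found in only 1 list of a matched pair tended to be weaker and narrower. With 1 library per condition, turnover between libraries of the same protocol is unknown, so it cannot be told apart from that of protocol. Between extractions at the same cycle number, 32.3% to 73.1% of a list's peaks were found in its partner (median 56.9%), and between cycle numbers at the same extraction 32.5% to 71.6% (median 51.8%). Peaks missing from the partner, called private below, had a lower median rank and a smaller median width than shared ones in 16 of 16 lists for extraction and in 16 of 16 for cycles. On a scale where 100 is the strongest peak of a list, the median rank of private peaks was 28.2 to 40.8 for extraction, against 59.7 to 73.6 for shared peaks. For cycles it was 30.2 to 41.4 against 59.6 to 74.5. Median private width was 0.789 to 0.900 times the shared width over cycles.

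Rank did not fully decide which peaks were shared. Of the strongest quintile of a list, a median of 86.0% of peaks was found across extraction and 83.2% across cycles, with minima of 66.6% and 65.1%. Of the weakest quintile the medians were 33.8% and 30.6%. The difference between partners in the share of peaks found in the other list passed no test, with a mean of 0.54 ± 21.6 points between column and SDS lists (n = 8 pairs; exact permutation p = 0.961, adjusted 0.961) and 5.42 ± 21.1 points between 13-cycle and 11-cycle lists (exact permutation p = 0.477, adjusted 0.953). A longer partner holds more of any list, so these shares follow list length.

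Overlap with the H3K27me3 list of SDS at 15 cycles was highest in the 2 ab177178 lists at 11 cycles. There, 15.6% (SDS) and 20.0% (column) of ab177178 peaks overlapped the repressive mark at 11 cycles, and 6.53% and 6.21% at 13 cycles. Against the column H3K27me3 list at 11 cycles the order was another, with 24.97% in the Active Motif SDS list and 24.7% in the Diagenode SDS list at 11 cycles, and 20.6% (SDS) and 24.5% (column) with ab177178. With the SDS list at 15 cycles, for ab4729 the values were 7.85% and 6.83% at 11 cycles and 7.24% and 6.62% at 13. Active Motif gave 13.47% and 10.499%, then 11.4% and 11.8%, and Diagenode 10.8% and 9.33%, then 6.94% and 11.8%. Within SDS lists the overlap was lower at 13 cycles in 4 of 4 antibodies, with a mean of 13 minus 11 of -3.88 ± 3.69 points (exact permutation p = 0.13, unadjusted, the smallest possible). Column lists were lower at 13 cycles in 2 of 4. Over 8 pairs the difference of 13 minus 11 cycles was -3.22 ± 5.55 points (lower in 6 of 8; exact permutation p = 0.148, adjusted 0.857), and -0.49 points without ab177178. It turned to 0.836 points when all lists were held to a common signal threshold of 3230, the highest floor of any list. Against the H3K27me3 list of the same extraction and cycle number it was -10.04 points, but there the reference changes with the arm. Across the 16 lists, the column H3K27me3 list overlapped a median of 20.4% of peaks when made at 11 cycles and 4.64% at 13. That value therefore cannot be set beside the others. Column minus SDS was 0.40 ± 2.79 points (exact permutation p = 0.727, adjusted 0.888).

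Within a list, overlap with the repressive mark was higher among wide, very narrow and strong peaks than among the rest. Peaks of 2000 bp and over overlapped it in 6.28% to 49.5% of cases (median of 16 lists 19.7%), those of 500 to under 2000 bp in 5.72% to 19.1% (median 8.90%) and those under 500 bp in 12.7% to 72.0% (median 21.2%). Both outer classes were above the middle class in 16 of 16 lists, although the narrow class held as few as 10 peaks. The strongest quintile of a list overlapped H3K27me3 more often than the third quintile in 16 of 16 lists, as in 27.4% against 9.85% with Active Motif (SDS, 11 cycles) and 15.5% against 6.57% with ab4729 (SDS, 11 cycles). In the 2 ab177178 lists at 11 cycles the weakest quintile was also high, 17.5% (SDS) and 21.3% (column), against 5.71% and 5.42% at 13 cycles. In the other 12 lists the weakest quintile stood at 3.16% to 9.94%. In each quintile of signal the ab177178 lists at 11 cycles had a higher overlap than those at 13 cycles.

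Peaks found at 13 cycles and missing at 11 overlapped H3K27me3 less often than shared peaks in every antibody. Private peaks overlapped it less in 14 of 16 lists over cycles and in 14 of 16 over extraction. They also ranked lower than shared peaks, and the strongest quintile had the highest overlap in 16 of 16 lists. Private and shared peaks of equal rank were not compared, so the part of rank in this difference was not tested. In the SDS lists at 13 cycles the overlap of private and shared peaks was 3.15% and 9.10% with ab177178, 5.10% and 8.87% with ab4729, 7.75% and 17.4% with Active Motif and 3.603% and 12.2% with Diagenode. In the column lists at 13 cycles it was 3.21% and 9.42%, 4.08% and 7.63%, 7.65% and 14.1%, and 8.59% and 14.3% for the antibodies in that order. Private peaks were lower in 8 of 8 lists, with a mean of private minus shared of -6.23 ± 2.10 points (5.39% against 11.6%; exact sign-flip permutation p = 0.00781, the smallest 8 pairs allow, adjusted 0.0312 over 4 tests). The adjusted p was 0.0312 too among peaks of 500 to under 2000 bp, where the difference was -5.24 points. Against the 4 other H3K27me3 lists, the difference ran from -3.83 to -18.6 points with an adjusted exact permutation p of 0.0104 to 0.0312. At a common signal threshold it was -13.6 points and at equal list size -8.27 points (adjusted exact permutation p of 0.0104 in both). The threshold of 3230 left the ab4729 column list at 11 cycles whole, whereas the median summed signal of lists ran from 1526.5 to 5260.5. Lists with a median below the threshold thus kept only their stronger peaks. Neither setting matched private and shared peaks on rank. With 6 pairs, after leaving out ab4729, Active Motif or Diagenode, the adjusted p was 0.13. With the antibody as the unit (n = 4) no exact p below 0.13 is possible, and the adjusted p was 0.25.

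Peaks found at 11 cycles and missing at 13 split by antibody. In the 6 lists of ab4729, Active Motif and Diagenode, private peaks overlapped H3K27me3 less than shared ones, as in 8.66% against 17.4% with Active Motif (SDS) and 7.04% against 14.1% with Diagenode (column). In the 2 ab177178 lists they overlapped it more, in 21.9% of 5878 private peaks against 7.98% of 4890 shared ones with SDS, and 30.0% of 4863 against 8.43% of 4233 with column. Over the 8 lists the mean difference was 0.97 ± 10.8 points (lower in 6 of 8; exact permutation p = 0.812, adjusted 0.812), and it turned to -4.77 points at a common signal threshold and -0.538 points at equal list size. Without ab177178, whose 2 lists gave the only positive differences, the mean was -4.62 points (lower in 6 of 6). That omission fixes the signs in advance, so no p-value is drawn from it. The ab177178 difference varied with the H3K27me3 list, and turned in the SDS list against one of them. Against the SDS list at 13 cycles the private and shared values were 16.1% and 5.71% (SDS) and 21.98% and 5.29% (column). Against the column list at 11 cycles, which overlapped 16.2% to 25.0% of every H3K27ac list, they were 19.8% and 21.6% (SDS) and 26.0% and 22.8% (column).

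**Figure D3:**
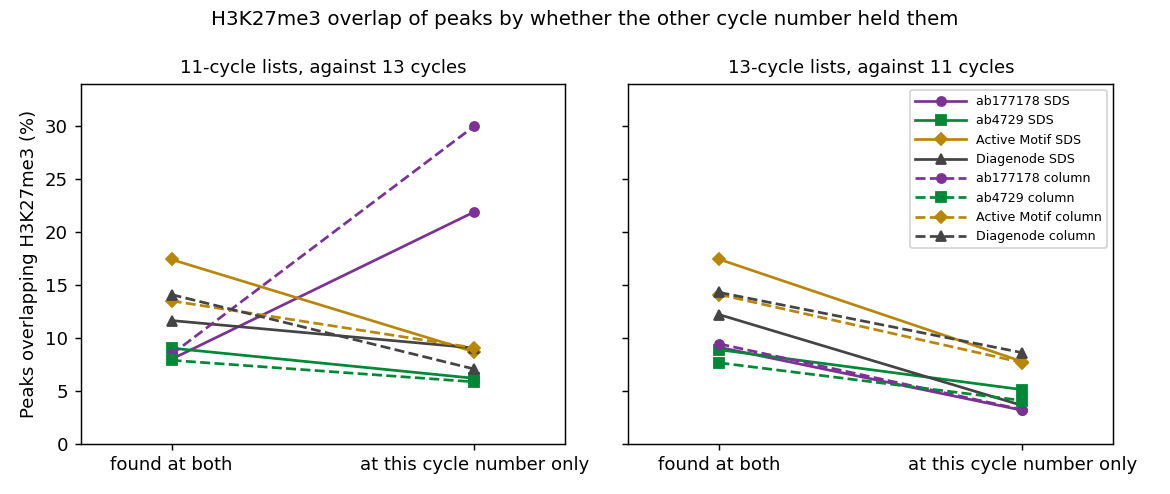
Share of peaks overlapping the H3K27me3 list of SDS at 15 cycles, in percent, for peaks found at both cycle numbers and peaks found only at the cycle number named above each panel. Each line is 1 list, solid for SDS and dashed for column. All 8 lines fall in the 13-cycle panel, and in the 11-cycle panel 6 fall while both ab177178 lines climb, to 21.9% and 30.0%.

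The ab177178 difference was present off chromosomes 9 and 22, parts of which are amplified in K562. Chromosome 22 held 6.17% (SDS) and 6.38% (column) of ab177178 peaks at 11 cycles and 3.31% and 2.62% at 13 cycles, against 1.99% to 4.22% in the 12 lists of the other antibodies. With chromosomes 9 and 22 left out, private and shared overlaps at 11 cycles were 18.1% and 5.50% (SDS) and 25.5% and 6.97% (column).

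For extraction the same comparison gave smaller differences than the 13-cycle lists in the main setting, but not at a common signal threshold. Peaks of SDS lists that the column list lacked overlapped H3K27me3 in 8.26% of cases on average, against 12.2% of shared peaks, a difference of -3.97 ± 3.83 points (lower in 7 of 8 lists; exact permutation p = 0.0234, adjusted 0.0469). The call was lost among peaks of 500 to under 2000 bp, with -2.47 points and an adjusted exact permutation p of 0.156, and at 50% overlap, with -2.24 points and 0.266. It was also lost against the H3K27me3 lists at 13 cycles (-2.10 and -2.65 points, adjusted exact permutation p of 0.0938 and 0.0833) and without ab4729, Active Motif or Diagenode (-4.93, -3.17 and -2.84 points, adjusted exact permutation p of 0.13, 0.188 and 0.188). For peaks of column lists that SDS lacked, the difference was -3.82 ± 4.59 points (lower in 7 of 8; exact permutation p = 0.0547, adjusted 0.0729). It was -5.79 points without ab177178, whose column list at 11 cycles gave the only positive difference (4.24 points). No p-value is drawn from that omission. At a common signal threshold the SDS and column differences were -13.9 and -15.1 points, and at equal list size -6.59 and -6.92 points (adjusted exact permutation p of 0.0104 in each). With the antibody as the unit (n = 4) the adjusted exact permutation p was 0.25 for SDS lists and 0.333 for column lists.

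None of 69 tests of chromosome shares passed adjustment (lowest adjusted exact permutation p = 0.231). At an unadjusted exact p under 0.05, 4 of 23 chromosomes (17.4%) separated column from SDS and 3 of 23 (13%) separated 13 from 11 cycles. Chromosome 19, the most gene-dense human chromosome, held the largest of these differences between extractions. Its share of a list averaged 6.13 ± 1.84% with SDS and 5.24 ± 1.21% on the column (SD, n = 8 lists each), a paired difference of -0.90 points that was negative in 7 of 8 pairs (exact permutation p = 0.0234, adjusted 0.231). At 11 cycles its share was 8.14% with SDS and 7.16% on the column for Active Motif, and 6.26% and 5.45% for Diagenode. For ab4729 it was 6.35% and 5.91%, and for ab177178 3.86% and 3.68%. At 13 cycles its share was 8.65% with SDS and 6.26% on the column for Active Motif. It was 6.44% and 4.81% for Diagenode and 6.06% and 4.89% for ab4729, whereas ab177178 had 3.30% and 3.73%. The ranges of the 2 extractions overlapped, from 3.30% to 8.65% and from 3.68% to 7.16%.

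Column lists had a larger share of peaks on chromosomes 2 and 4 and a smaller share on chromosome 16. The paired difference on chromosome 2 was 0.32 points, positive in 8 of 8 pairs (7.61% against 7.29%; exact permutation p = 0.00781, adjusted 0.231). On chromosome 4 it was 0.42 points (3.87% against 3.45%; 7 of 8; exact permutation p = 0.0234, adjusted 0.231), and on chromosome 16 it was -0.23 points (3.62% against 3.86%; 7 of 8; exact permutation p = 0.0234, adjusted 0.231). When every list was held to 3761 peaks, the strongest, these differences were 0.48, 0.55 and -0.21 points, and that of chromosome 19 was -1.02 points.

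Chromosome 6 had the largest gain at 13 cycles, although it did not pass adjustment. Its share of a list was 7.15% to 7.82% in the 8 lists at 11 cycles and 7.52% to 9.30% in the 8 at 13 cycles, with a paired difference of 0.95 points (8.49% against 7.55%; higher in 7 of 8 pairs; exact permutation p = 0.0156, adjusted 0.231). Chromosome 7 was lower at 13 cycles (-0.36 points; 6.15% against 6.51%; 7 of 8; exact permutation p = 0.0156) and chromosome 9 (-0.47 points; 3.87% against 4.34%; 7 of 8; exact permutation p = 0.0234), both with an adjusted value of 0.231. The chromosome 9 difference was -0.30 points without ab177178.

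**Figure D4:**
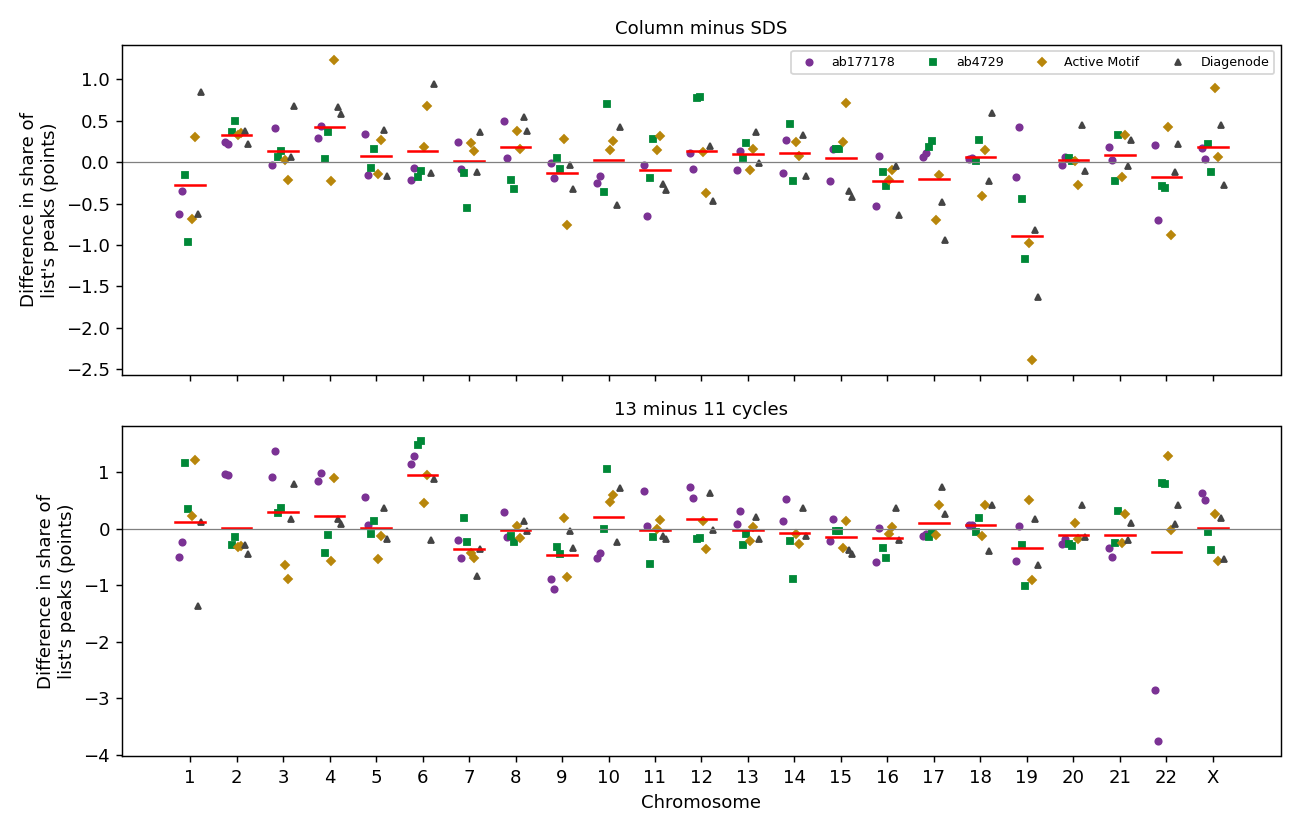
Paired difference in the share of a list's peaks on each chromosome, in percentage points, for column minus SDS (top) and 13 minus 11 cycles (bottom). Each point is 1 of 8 pairs, coloured and shaped by antibody, and red bars are means. In the top panel 7 of 8 points of chromosome 19 lie below 0, in the bottom panel 7 of 8 points of chromosome 6 lie above 0, and both ab177178 points of chromosome 22 lie far below the others.

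Windows of 5 Mb were then examined, a scale chosen after the chromosome shares were seen. Of 468 windows, 34 (7.26%) had an unadjusted exact p under 0.05 for extraction and 34 (7.26%) for cycles, and 0 passed adjustment (lowest adjusted exact permutation p = 0.609 in both). One window of chromosome 6, from 25000001 to 30000000 in hg19, was higher at 13 cycles in 8 of 8 pairs. It holds the major cluster of histone genes, which are strongly transcribed in dividing cells. At 11 cycles it held 0.418% (SDS) and 0.418% (column) of ab177178 peaks, and at 13 cycles 0.822% and 0.840%. For ab4729 the values were 0.761% and 0.769% at 11 cycles and 1.18% and 1.41% at 13. Active Motif went from 0.758% and 0.709% to 0.840% and 0.898%, and Diagenode from 0.649% and 0.5997% to 0.863% and 0.824%. The 2 groups of 8 lists did not overlap, and the mean difference was 0.33 ± 0.18 points (exact permutation p = 0.00781, adjusted 0.609). This window was picked for its difference, the largest among windows with an unadjusted exact p under 0.05. How many of the 468 windows separate the groups in this way was not counted, so the separation is a description only.

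The window's counts were 26 to 51 peaks at 11 cycles and 31 to 74 at 13 cycles. Only 1 of the 16 lists had a peak in it that overlapped H3K27me3, ab177178 on the column at 11 cycles, where 2.63% of its window peaks did. Without this window, the remaining chromosome 6 difference was 0.62 points (higher in 7 of 8; exact permutation p = 0.0234, unadjusted), so the window held part of it.

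**Figure D5:**
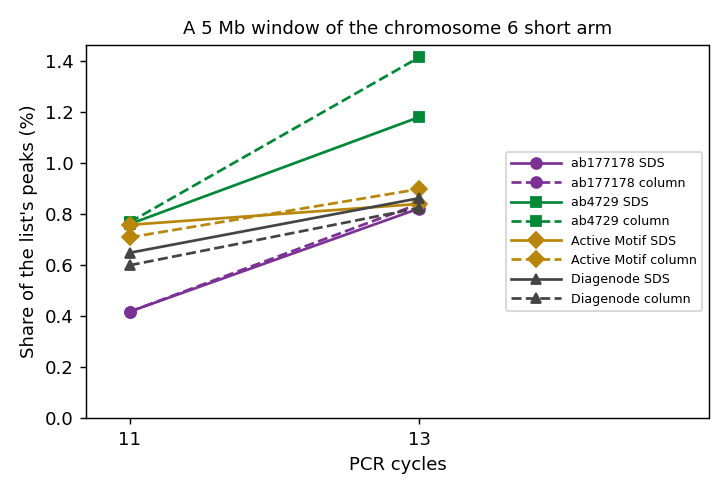
Share of each list's peaks, in percent, in the 5 Mb window of chromosome 6 that holds the histone gene cluster, against PCR cycles. Each line is 1 antibody and extraction, solid for SDS and dashed for column. All 8 lines climb from 11 to 13 cycles, and the 2 ab4729 lines reach 1.18% and 1.41%.

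Among windows with an unadjusted exact p under 0.05, the largest differences between extractions lay on chromosomes 19 and 11, and these were lower on the column. On chromosome 19 the window from 15000001 to 20000000 held 0.590% of peaks in column lists and 0.756% in SDS lists (lower in 7 of 8 pairs; exact permutation p = 0.0312, adjusted 0.609). The window from 10000001 to 15000000 held 0.554% and 0.689% (7 of 8; exact permutation p = 0.0234, adjusted 0.609). On chromosome 11 the window from 60000001 to 65000000 held 0.695% in column lists and 0.837% in SDS lists (7 of 8; exact permutation p = 0.0156, adjusted 0.609). Between cycle numbers, the last window of chromosome 7, from 155000001, held 0.273% of peaks at 13 cycles and 0.416% at 11 (lower in 7 of 8; exact permutation p = 0.0391, adjusted 0.645).

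Merging the 16 lists gave 22384 regions, of which 9449 (42.2%) were in 1 list only and 462 (2.06%) in all 16. Width and strength climbed with the number of lists. Median width was 848 bp for regions in 1 list, 2073 bp in 8 lists and 3843.5 bp in all 16, and the median of mean rank was 23.7, 46.1 and 84.9. Merging itself widens regions found in more lists. Overlap with H3K27me3 was highest at both ends of this scale, 20.3% for regions in 1 list and 18.2% for those in all 16, and 5.89% for regions in 10 lists. The most and the least reproducible regions thus overlapped the repressive mark more often than those between, pooled over antibodies. Regions in 1 list were not split by antibody. Peaks private over cycles overlapped the mark in 21.9% and 30.0% of cases in the ab177178 lists at 11 cycles, and in 3.15% to 9.04% in the other lists. Regions in all 16 lists were also the widest, which raises the chance of an overlap.

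The regions of highest rank in all 16 lists lay at chromosome ends and beside centromeres. The first ran from 10001 to 12339 on chromosome 5, the start of its assembled sequence, with a mean rank of 99.996. The next were on chromosome 1 from 121482672 to 121485434, with 99.97, and on chromosome 19 from 27731783 to 27740624, with 99.8. All of these overlapped H3K27me3 peaks. Repeat-rich sequence of this kind was not masked, nor was signal scaled by copy number.

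Of 12089 regions in 2 to 14 lists, 0 passed adjustment in any contrast by the exact sign test. At an unadjusted exact p under 0.05, 2 (0.0165%) were more frequent on the column and 4 (0.0331%) with SDS. A region of chromosome 6 from 42164836 to 42166175 was in 7 of 8 SDS lists and 0 of 8 column lists (exact p = 0.0156, adjusted 1). It was missing from the SDS list of ab4729 at 13 cycles. On chromosome 12 a region from 64844701 to 64847244 was in 6 of 8 column lists and 0 of 8 SDS lists (exact p = 0.0312, adjusted 1).

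For cycle number there were 17 (0.141%) more frequent at 13 cycles and 18 (0.149%) more frequent at 11, at the same unadjusted threshold. With an antibody left out these counts were 2 to 4 and 1 to 7. None of the 17 overlapped H3K27me3, and 11.1% of the 18 did, against 9.30% of all regions tested. The 17 had a median width of 1776 bp and the 18 of 2174 bp. On chromosome 2 the region from 223730674 to 223731694 was in all 8 lists at 13 cycles and 0 at 11, at ranks from 17.5 to 95.2 (exact p = 0.00781, not passing adjustment). The reverse held for chromosome 2 from 33141263 to 33141692, at ranks from 55.0 to 97.7, which also overlapped H3K27me3 (exact p = 0.00781, not passing adjustment). No other region of the 12089 tested separated 8 lists from the other 8 in this way. On chromosome 7 the region from 16384 to 16987, near the end of the chromosome, was in 7 of 8 lists at 13 cycles and 0 at 11 (exact p = 0.0156, adjusted 1). A region of chromosome 9 from 94558678 to 94561513 was in 8 of 8 lists at 11 cycles and 2 of 8 at 13 (exact p = 0.0312, adjusted 1).

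For the cross-over of extraction and cycles the count depended on list length. There were 30 (0.248%) more frequent in column lists at 11 cycles and SDS lists at 13, and 1 (0.00827%) more frequent in the other 2 arms, but 5 and 2 when every list was held to 3761 peaks, and 2 to 5 of the first kind with an antibody left out. Of the 30, 7 lay on chromosome 1 and 5 on chromosome 19, which hold 11.3% and 5.91% of the regions tested. Among those on chromosome 19 was the region from 47775824 to 47779350, found in all 6 such lists of ab4729, Active Motif and Diagenode and in none of the other 10 lists. In those 3 antibodies these 2 arms gave the longer lists. The number found in the column list at 11 cycles and the SDS list at 13 and in neither other list of the same antibody was 1135 for Diagenode, 862 for Active Motif, 541 for ab4729 and 318 for ab177178. The reverse pattern was found in 79, 120, 164 and 499 regions for the antibodies in that order. Only ab177178, whose 11-cycle lists were its longest, had more regions of the reverse pattern.

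Lists that differed in a single factor overlapped over a range close to that between antibodies. As a share of bases covered by either list, the overlap was 19.4% to 37.7% between extractions of 1 antibody (median 25.5%) and 19.1% to 30.4% between cycle numbers (median 24.3%). It was 19.9% to 31.6% when both differed (median 24.4%), and 15.5% to 34.3% between antibodies under 1 protocol (median 22.4%, 24 pairs). As means of 2 pairs each, extraction pairs overlapped more than cycle pairs in 4 of 4 antibodies. The means were 29.9% against 24.3% with ab177178, 32.8% against 30.2% with ab4729, 22.6% against 21.4% with Active Motif and 22.8% against 22.4% with Diagenode. The mean difference was 2.45 ± 2.24 points (exact permutation p = 0.13, the smallest possible, adjusted 0.25). Single pairs did not keep this order, and each antibody had an extraction pair below a cycle pair. With Diagenode, extractions at 13 cycles overlapped by 19.4% and cycle numbers with SDS by 25.6%. Extraction pairs exceeded pairs differing in both by 1.39 ± 3.74 points (higher in 3 of 4; exact permutation p = 0.625, adjusted 0.625). By protocol, the antibodies overlapped each other most in the column lists at 11 cycles (median 27.02%, 6 pairs) and least in those at 13 cycles (median 18.6%). The base overlap of 2 lists also depends on their lengths.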

How the data were processed

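The authors deposited 1 SEACR peak list per library, with a total and a maximum signal for each peak. Calls were made per library on reads without duplicates, per the labels. The submitters' processing notes name the build hg19 and, with no role or order, SEACR, bedtools 2.25.0, SAMtools 1.3.1, Picard 2.6.0, Bowtie2 2.2.9, Trim Galore 0.6.6 and bcl2fastq. The SEACR mode and threshold, and the depth after downsampling, are unstated in the labels and notes used, and the depth behind each value is therefore unknown. Without molecular identifiers, PCR reads do not count separate molecules.

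Total signal ranked peaks within a list. An overlap of at least 1 bp counted. Pairs matched on antibody and on the other factor were compared by sign-flip permutation of the mean, exact and two-sided (8 pairs, or 4 antibodies for the extraction by cycle term), and regions by exact sign tests. Benjamini-Hochberg adjustment covered 18 list measures, 12 width classes, 15 recovery tests, 69 chromosome tests, 4 private-peak tests, all windows with at least 0.05% of peaks on average, and all regions in 2 to 14 lists. Regions were named by highest mean rank, among those with an unadjusted exact p under 0.05 in each contrast and direction and among those in all 16 lists. Any region that perfectly separated 8 lists from the other 8 was also named. Windows were named by size of difference among those with an unadjusted exact p under 0.05, and only some of these regions and windows are printed. The members, measures and lists were chosen with earlier results of these data known. Alternatives covered sequences kept, a common signal threshold, equal list size, merging within 1 kb, width boundaries, overlap required, H3K27me3 list, unit of the test and antibodies left out. MACS2, trichostatin A and Diagenode 1/100 lists were not used here. Positions count from 1. The overlap and test code was tested on simulated data, with bedtools 2.31.1, matplotlib 3.10.9, pandas 2.3.3, numpy 2.4.6 and Python 3.11.15.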

Additional observations from a re-analysis of the deposited data

Results flagged for a closer look

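The share of summed signal in the top decile of peaks had opposite signs between column and SDS lists at the 2 cycle numbers. Every antibody gave a negative difference at 11 cycles, with a mean of -5.25 points, and every antibody a positive one at 13 cycles, with a mean of 3.39 points. The difference between the cycle numbers did not reach 0.05, which 4 antibodies do not allow. With all sequences kept, the pattern did not hold in every antibody, and the difference was 6.36 points (exact permutation p = 0.25).

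Mitochondrial sequence lies outside the chromosomes compared and had peaks in all 16 lists. It took 60.1% of the summed signal in the Diagenode column list at 13 cycles, the highest value, and 2.72% in the ab177178 column list at 13 cycles, the lowest. No control library without antibody was used here.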

How the results depend on the processing

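The depth of each list is unknown, and 6 pairs allow no exact p below 0.0312, so 4 tests adjusted together pass without 1 antibody only if most of them reach it. No list measure, width class, recovery test, chromosome, window or region passed adjustment under any setting tried. Lists were paired on antibody, and the labels give no replicate numbers to pair on. Leaving lists unmatched on antibody, or taking the antibody as the unit, gives the same means by construction, so neither setting could change a direction. No list measure had a call to lose, and 4 antibodies could not have given one. With the antibody as the unit both private-peak calls were lost, at -6.23 points (13-cycle lists) and -3.97 points (SDS lists), each with an adjusted exact permutation p of 0.25.

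Several means changed sign, and the cause was not tested. With all sequences kept, the signal share of the top decile was 0.687 points for column minus SDS and 1.58 points for 13 minus 11 cycles. Under a common signal threshold, covered length was 0.0183 (log2, column to SDS), the H3K27me3 difference 0.836 points (13 minus 11), and the extraction by cycle terms of median width and of the share of peaks of 5 kb and over 0.0416 (log2) and 0.509 points. At equal list size, covered length was 0.0244 (column to SDS), partner recovery -0.0831 points, and the H3K27me3 difference -0.0997 points (column minus SDS) with an extraction by cycle term of -0.758. That term was -0.0807 against the SDS H3K27me3 list at 13 cycles. It was -13.7 against the H3K27me3 list of the same protocol, where the reference itself differs between arms. Merging within 1 kb gave -0.116 (column minus SDS) and 0.0203 points (13 minus 11) for the share of peaks of 5 kb and over. Width boundaries of 400, 1000 and 3000 bp gave log2 values of 0.502 (narrowest class, extraction by cycle), 0.0258 (the second class, 13 to 11) and -0.00717 (the third class, column to SDS). Requiring 50% overlap gave 1.18 and 0.524 points for the middle quintile and the fourth quintile of recovery (column minus SDS) and -1.12 points for partner recovery.

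The lower overlap of private 13-cycle peaks with H3K27me3 kept its direction under every setting tried, from -7.09 to -5.63 points with an antibody left out. For SDS lists the private difference was -2.24 points at 50% overlap, -2.47 points for peaks of 500 to under 2000 bp, -2.10 and -2.65 points against the SDS and column H3K27me3 lists at 13 cycles, and -4.93 to -2.84 points with an antibody left out. For column lists it passed against the H3K27me3 lists at 11 cycles (SDS -3.04, column -15.8 points), at a common signal threshold (-15.1 points) and at equal list size (-6.92 points), and ran from -5.79 to -2.23 points with an antibody left out. For 11-cycle lists it was -11.0 points against the column H3K27me3 list at 11 cycles, -4.77 points at a common signal threshold, -0.538 points at equal list size and -4.62 to 3.49 points with an antibody left out.

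Leaving out each antibody in turn gave these other ranges across 0, on the log2 scale. For column to SDS they were -0.117 to 0.0924 for covered length, -0.0429 to 0.139 for median width, -0.0326 to 0.103 for shared peak width, -0.680 to 0.204 for peaks under 500 bp, -0.194 to 0.436 for 2000 to under 5000 bp and -0.0845 to 0.628 for 5000 bp and over. For 13 to 11 cycles they were -0.238 to 0.0161 for median width, -0.231 to 0.00195 for shared peak width and -0.958 to 0.0394 for peaks of 2000 to under 5000 bp. The extraction by cycle terms were -0.130 to 0.0142 for median width and -0.362 to 0.211 for peaks under 500 bp. In points, column minus SDS ranged from -0.0195 to 0.102 for the share of peaks of 5 kb and over, -0.150 to 0.973 for H3K27me3 overlap, -0.831 to 3.09 for partner recovery, and -1.05 to 1.13, -1.74 to 0.955, -2.11 to 0.471 and -3.42 to 0.0562 for the 4 weakest quintiles in order of recovery. For 13 minus 11 cycles the ranges were -2.18 to 1.31 for the top decile and -2.66 to 0.160 for the weakest quintile of recovery, and the extraction by cycle term of H3K27me3 overlap ran from -0.340 to 3.35.

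Counts of regions at an unadjusted exact p under 0.05 depended on the setting. With 50% of a region covered these were 5 (13 cycles), 11 (11 cycles), 9 (cross-over), 0 (column) and 2 (SDS). At equal list size the cross-over had 5 and its reverse 2. With an antibody left out the cross-over had 2 to 5.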
